A study of Homo sapiens with 6 samples.

Results

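The ISG15 system is a set of 6 genes whose products attach the small ubiquitin-like protein ISG15 to other proteins and take it off again. Its genes, ISG15, UBA7, UBE2L6, HERC5, HERC6 and USP18, were chosen by symbol and matched through their Ensembl identifiers, and all 6 were found once among the 62492 genes listed. They were examined after transfection of 20 nM siRNA with a lipid reagent into HCT116, an established line of human colorectal cancer cells. In 3 libraries, called siControl and labelled WT, the cells had received a control duplex, and in 3 others, called siNONO and labelled NONO knockdown, they had received siRNA against NONO, an RNA- and DNA-binding protein of the nuclear bodies known as paraspeckles. Libraries were made from polyadenylated RNA, and each of Set 1, Set 2 and Set 3 held 1 siControl and 1 siNONO library. The methods give 1 duplex against NONO, so loss of NONO and another effect of that duplex cannot be told apart. The design calls the libraries biological replicates without saying how their cultures were kept apart, so the p-values measure the spread between these samples.

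ISG15 is made in large amounts when cells respond to type I interferon. It is joined to lysines of target proteins by the same kind of relay as ubiquitin. UBA7 is the E1 enzyme that activates ISG15, UBE2L6 is the E2 enzyme that carries it, and HERC5 is the main E3 ligase of human cells, which acts on newly made proteins at the ribosome. HERC6 is the closest relative of HERC5 and does most of this work in the mouse. USP18 removes ISG15 from its targets and, apart from that, binds the interferon receptor and dampens its signalling. Interferon raises transcription of these genes through the factor complex ISGF3, which binds a short element called the ISRE.

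The promoters of the modifier and its main ligase are printed here because they show that element. The search was for the ISRE core GAAANNGAAA on both strands, within the 250 bases before and 50 bases after each transcription start in RefSeq windows of GRCh38. Windows were matched for 4 of the 6 genes, and UBA7 and USP18 were not matched. ISG15 held 2 matches, which overlap each other, and HERC5 held 3, of which 2 overlap each other. The windows of UBE2L6 and HERC6 held none of these letters. Among all 35116 windows of that length, 1255, or 3.57%, held at least 1 match. The GAS element TTCNNNGAA, searched in the same way and independent of the ISRE core, was in 2689 windows, or 7.66%, and in none of the members' windows. The stretches below are from GRCh37, the build of the files, on the plus strand, with the matches in capitals. That of ISG15 is chr1:948744-948799, from base -133 to -78 relative to the start, and that of HERC5 is chr4:89378125-89378225, from -145 to -45. The HERC5 matches read on the minus strand, so the capitals show their reverse complement.
ISG15: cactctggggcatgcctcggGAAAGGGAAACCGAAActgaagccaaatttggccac
HERC5: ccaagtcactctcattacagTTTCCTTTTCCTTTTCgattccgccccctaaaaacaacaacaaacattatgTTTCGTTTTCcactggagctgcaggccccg
A match is a description of the letters, and binding was not measured here.

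The depth and the targeted gene were examined first. Estimated counts summed to between 21765393 and 32659002 per library. NONO had 496, 495 and 516 CPM (counts scaled to library size with TMM factors) in siControl and 89.5, 95.5 and 100 CPM in siNONO, so every siNONO library kept the label's direction. Its log2 fold change, siNONO against siControl, was -2.40 (SE 0.034, adjusted p = 2.47e-13, by the quasi-likelihood test of edgeR after the Benjamini-Hochberg procedure), where SE is the standard error, and 18.9% of the control level was left. Unless another setting is named, adjusted p-values come from this test over 17000 genes with enough counts, and a gene is called where the adjusted p is 0.05 or less. The epithelial markers EPCAM, CDH1, KRT8, KRT18 and KRT19 summed to between 2900 and 2980 CPM in siControl and between 2920 and 3170 CPM in siNONO. EPCAM (log2 fold change 0.32, adjusted p = 3.52e-06 in edgeR) and KRT19 (0.14, adjusted p = 0.00731) were called higher. CDH1, KRT8 and KRT18 were not called. Of 5 matched markers of other cells, PTPRC and CD3E, which mark leukocytes, and the collagen gene COL1A2 had at most 1 count in any library. The summed level of those 5 was 36.5 to 42.9 CPM in siControl and 41.2 to 48.0 CPM in siNONO. COL1A1 made up most of it and was not called (log2 fold change 0.02, adjusted p = 0.79 in edgeR). CD68, a lysosomal protein used as a macrophage marker, moved with the siRNA, at 1.96, 1.74 and 2.15 CPM in siControl and 4.45, 5.93 and 5.27 CPM in siNONO (log2 fold change 1.40, adjusted p = 1.8e-05 in edgeR). Its part in the results was not tested.

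To learn how the ISG15 system responded to NONO knockdown, the 6 genes were compared between siNONO and siControl. ISG15, UBE2L6, HERC5, HERC6 and USP18 rose, and UBA7 did not pass the test. Thus 5 of 6 members were called higher, where 23.2% of all genes tested were. The members were chosen with earlier results of these data known, so counts set beside such shares describe the list and are not a test. No member was called lower, at an adjusted p or at an unadjusted p under 0.05, by edgeR or by DESeq2 or limma, where 23.4% of all genes tested were called lower by edgeR. All 5 also had a log2 fold change of at least 1, a size reached together with a higher call by 1.62% of all genes. In the same 5 genes every siNONO library lay above every siControl library, as in 23.9% of all genes. The median log2 fold change over the 6 members was 2.09, at 2.14, 1.97 and 2.13 in Sets 1, 2 and 3, beside -0.00 over all genes tested. Of all calls, 3939 were higher and 3985 lower, whereas limma on log2(TPM + 1) gave 1643 higher and 3614 lower, and the 5 members were called higher by it too. In these bulk libraries, more cells expressing a gene and more RNA per cell cannot be told apart.

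The modifier itself moved most. ISG15 (chromosome 1, 948877 to 949920, plus strand of GRCh37, 2 exons) had 34, 33.3 and 32.7 CPM in siControl and 233, 211 and 324 CPM in siNONO. The control libraries lay close together, and the siNONO library of Set 3 stood above those of Sets 1 and 2. The log2 fold change was 2.91 (SE 0.085, edgeR quasi-likelihood adjusted p = 9.99e-11), a 7.50-fold rise with a 95% interval of 6.60 to 8.53. By Set it was 2.78, 2.66 and 3.31, and it ranked 26th among the 17000 genes. In TPM, which corrects for transcript length and so allows levels of different genes to be compared, ISG15 rose from 108 ± 2.84 (SD, n = 3) to 786 ± 188 (SD, n = 3). That moved it from rank 1231 to rank 162 of the genes tested, or from percentile 92.8 to percentile 99.0. With robust dispersions in edgeR its SE was 0.18 and its adjusted p 0.00621, the largest adjusted p of the 16 other settings tried. By DESeq2 its SE was 0.198. The 95% interval above is that of the main setting alone. On the log2 scale it was 2.72 to 3.09, and the values of Sets 2 and 3 lay outside it.

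**Figure D1:**
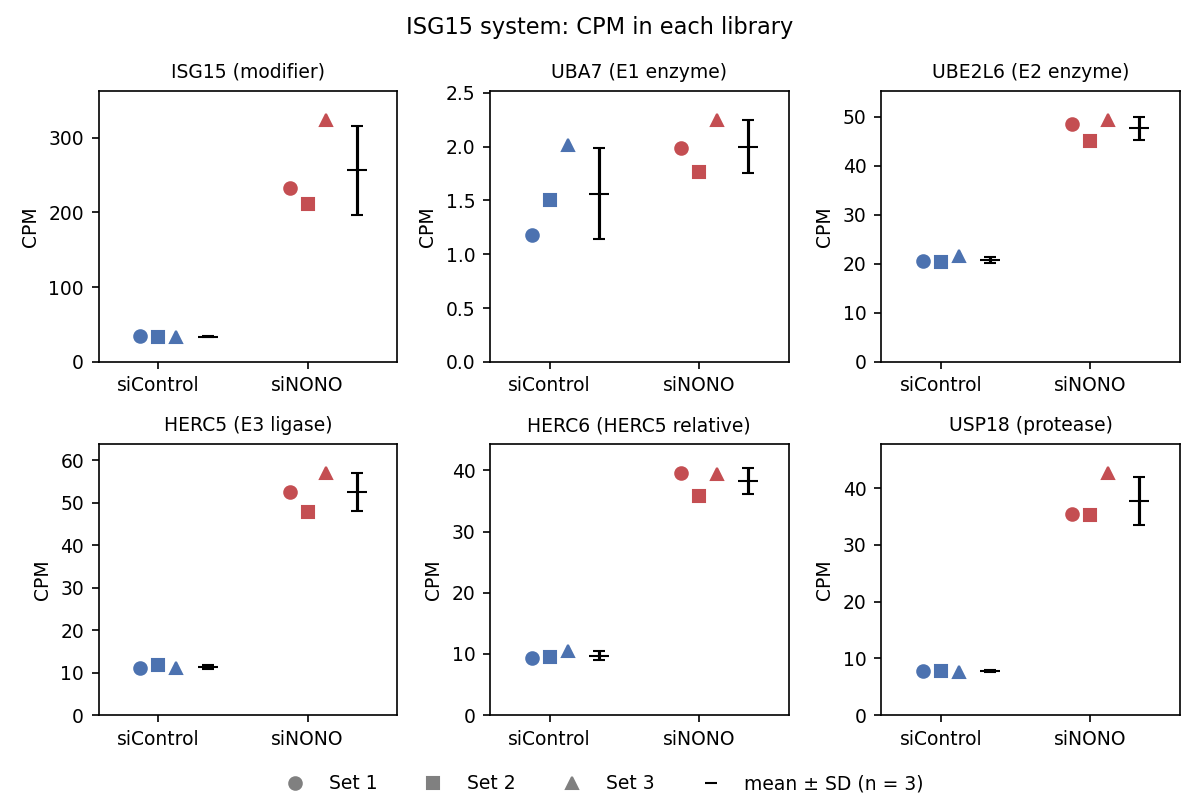
CPM of the 6 genes (vertical axes, from 0, each panel on its own scale) in the siControl and siNONO libraries; markers show the Set, and black bars the mean ± SD of 3 libraries. The groups are apart in all panels but that of UBA7, where the siControl library of Set 3 (2.01 CPM) lies above the siNONO libraries of Sets 1 and 2 (1.99 and 1.76 CPM).

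UBA7, the E1 enzyme, was the least abundant of the members. UBA7 (chromosome 3, 49842642 to 49851386, minus strand, 24 exons) had 1.18, 1.5 and 2.01 CPM in siControl and 1.99, 1.76 and 2.25 CPM in siNONO, from 39, 41 and 44 and from 57, 49 and 63 counts. The groups overlapped. Its log2 fold change was 0.38 (SE 0.219, edgeR quasi-likelihood adjusted p = 0.179), and its fold ran from 0.936 to 1.81 in the 95% interval, which takes in both no change and a rise below that of UBE2L6. The Sets gave 0.75, 0.23 and 0.17. The mean transcript length that RSEM assigned to UBA7 was 1926, 1049 and 983 bases in siControl and 1407, 1210 and 1304 bases in siNONO, all shorter than the 3036 coding bases of its canonical transcript, and the TPM of the control libraries followed with 0.98, 2.45 and 3.63. How reads were divided among its 11 listed transcripts was not tested.

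UBE2L6, the E2 enzyme, rose within a narrow spread. UBE2L6 (chromosome 11, 57319135 to 57335145, minus strand, 4 exons) had 20.6, 20.3 and 21.5 CPM in siControl and 48.5, 45.0 and 49.4 CPM in siNONO. No libraries of the groups overlapped. The log2 fold change was 1.20 (SE 0.050, edgeR quasi-likelihood adjusted p = 2.22e-09), or 2.29-fold (95% interval 2.12 to 2.47), and it was 1.24, 1.15 and 1.20 in Sets 1, 2 and 3. In TPM it was the most abundant enzyme of the system in both groups, at 28.5 ± 1.10 (SD, n = 3) and 61.5 ± 4.2 (SD, n = 3).

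The ligase HERC5 and its relative HERC6 lie side by side on chromosome 4, both on the plus strand, HERC6 from 89300004 to 89364249 and HERC5 from 89378270 to 89427314, with 14.0 kb between them. HERC5 (23 exons) had 11, 11.8 and 11.2 CPM in siControl and 52.6, 47.9 and 57.0 CPM in siNONO. HERC6 (also 23 exons) had 9.29, 9.46 and 10.5 CPM in siControl and 39.6, 35.8 and 39.4 CPM in siNONO. Both were well above their controls in every Set. HERC5 rose 4.61-fold (95% interval 4.17 to 5.09), a log2 fold change of 2.20 (SE 0.066, edgeR quasi-likelihood adjusted p = 1.15e-10), and HERC6 rose 3.95-fold (95% interval 3.59 to 4.34), a log2 fold change of 1.98 (SE 0.063, adjusted p = 1.86e-10). By Set, HERC5 gave 2.25, 2.02 and 2.35 and HERC6 gave 2.09, 1.92 and 1.91. Their lengths as assigned by RSEM bear on the TPM of HERC6. That length was 2872, 2674 and 2568 bases in siControl and 2990, 3365 and 3411 bases in siNONO, without overlap, and on log2(TPM + 1) the change of HERC6 was 1.44. The cause of the longer estimate was not tested.

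USP18, the protease that removes ISG15, also rose. USP18 (chromosome 22, 18632937 to 18660164, plus strand, 11 exons) had 7.82, 7.87 and 7.56 CPM in siControl and 35.5, 35.2 and 42.7 CPM in siNONO. The control libraries lay close together, and the siNONO library of Set 3 was again the highest. The log2 fold change was 2.27 (SE 0.073, edgeR quasi-likelihood adjusted p = 2.09e-10), or 4.82-fold (95% interval 4.31 to 5.38), at 2.18, 2.16 and 2.5 in the 3 Sets. USP18 shares sequence with its near copy USP41, and RSEM divided some reads between them, giving USP41 2.42, 2.49 and 0 counts in siControl and 0, 6.76 and 6.09 counts in siNONO. With both genes summed, the log2 fold change was again 2.27.

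The members were then set in order. By log2 fold change the order was ISG15, USP18, HERC5, HERC6, UBE2L6 and UBA7. The ranges over the Sets overlapped between USP18 and HERC5 and between HERC5 and HERC6, and not between the other neighbours. Within Sets, HERC5 was above HERC6 in 3 of 3 and USP18 above HERC5 in 2 of 3, and these differences were not tested. The range of ISG15 (2.66 to 3.31) lay above that of USP18 (2.16 to 2.5), and that of UBE2L6 (1.15 to 1.24) lay between those of HERC6 (1.91 to 2.09) and UBA7 (0.17 to 0.75). Among the 17000 genes, USP18 ranked 49th, HERC5 55th, HERC6 70th, UBE2L6 200th and UBA7 2180th by log2 fold change. In the siNONO libraries, the one of Set 2 was lowest for all 6 genes.

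By level, in TPM, ISG15 led and UBA7 was last in both groups. In siControl the order was ISG15, UBE2L6, USP18, HERC6, HERC5 and UBA7, with overlap between HERC6 (4.96 to 6.29 TPM) and HERC5 (4.80 to 5.46 TPM). In siNONO, HERC5 at 22.6 ± 1.51 TPM (SD, n = 3) was above HERC6 at 16.7 ± 2.22 TPM (SD, n = 3), without overlap. The TPM of HERC6 carries its RSEM length, which was 2568 to 2872 bases in siControl and 2990 to 3411 bases in siNONO. In CPM, which leaves length out, HERC5 was above HERC6 within every library of both groups. Among all genes tested, the ligases and the protease moved from percentiles between 35.2 and 38.8 in siControl to between 59.1 and 73.3 in siNONO, and UBA7 went from percentile 24.7 to 25.7. The summed TPM of the 6 genes was 157, 154 and 157 in siControl and 866, 755 and 1140 in siNONO. Of that sum, ISG15 made up 69.2% ± 1.66 (SD, n = 3) in siControl and 85.2% ± 2.12 (SD, n = 3) in siNONO, and UBE2L6 went from 18.3% ± 0.516 (SD, n = 3) to 6.84% ± 1.04 (SD, n = 3).

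To compare the modifier with each enzyme, the ratio of ISG15 TPM to enzyme TPM was taken in each library. For UBE2L6 it was 3.89, 3.90 and 3.58 in siControl and 11.4, 11.2 and 15.5 in siNONO. For USP18 it was 16.5, 16.2 and 16.3 in siControl and 25.2, 22.9 and 29.0 in siNONO. Both ratios were higher in every siNONO library. The ratio to HERC5 went from 20.9 ± 1.94 (SD, n = 3) to 34.7 ± 7.17 (SD, n = 3), and the ratio to HERC6 from 19.8 ± 2.80 (SD, n = 3) to 47.4 ± 12.1 (SD, n = 3). For UBA7 the control ratios were spread widely, at 113, 43.5 and 29.2, and the siNONO ratios were 326, 279 and 366. These ratios carry the lengths assigned by RSEM, which differed between libraries for UBA7 and between the groups for HERC6. On counts, which leave length out, the edgeR log2 fold changes were 2.91 for ISG15 and 1.98 for HERC6. On the log2 scale the differences over Sets were 1.73 ± 0.34 for UBE2L6, 0.65 ± 0.17 for USP18, 0.71 ± 0.35 for HERC5, 1.24 ± 0.56 for HERC6 and 2.62 ± 1.06 for UBA7 (SD, n = 3). In none of the 5 ratios did the groups overlap. The two-sided exact permutation test shuffled the libraries without regard to Set. Its p was 0.1 for each, also after adjustment over the 5 ratios, which is the smallest that 3 libraries against 3 can give in this way.

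**Figure D2:**
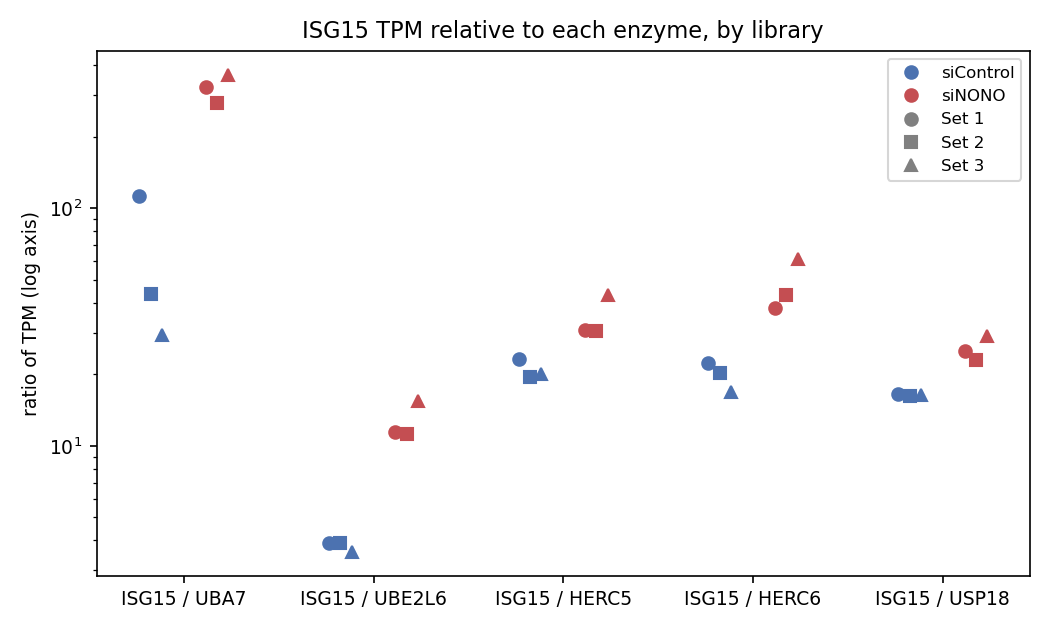
Ratio of ISG15 TPM to the TPM of each enzyme (vertical log axis) in the siControl (blue) and siNONO (red) libraries, with the Set as the marker shape. The ratio to UBE2L6 is the lowest, between 3.58 and 3.90 in siControl and between 11.2 and 15.5 in siNONO, and no siNONO ratio overlaps the siControl ratios of the same enzyme.

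The other enzymes that are known to act on ISG15, and the other HERC genes, were called in both directions. Of 13 such genes, 12 were tested, and 4 were called higher, 6 lower and 2 were not called, with a median log2 fold change of -0.17. Over all genes tested, 23.2% were called higher and 23.4% lower. USP41, the near copy of USP18, was not tested. TRIM25, a ubiquitin ligase that is itself modified by ISG15 and can act as its ligase, had 192, 196 and 203 CPM in siControl and 381, 362 and 410 CPM in siNONO. It was the one gene of this list with a large rise, 1.95-fold, at a log2 fold change of 0.96 (SE 0.033, edgeR quasi-likelihood adjusted p = 3.50e-10). ARIH1, the other ligase named for ISG15, fell by 0.17 on the log2 scale (adjusted p = 0.00175 by the same edgeR test).

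Among proteases that can cleave ISG15 as well as ubiquitin, the changes were small and in both directions. USP5 (log2 fold change 0.19, adjusted p = 3.13e-04 in edgeR) and USP16 (0.19, adjusted p = 0.00478) were called higher. USP13 (-0.22, adjusted p = 0.00131 in edgeR), USP14 (-0.24, adjusted p = 8.56e-05) and USP21 (-0.22, adjusted p = 0.0105) were called lower, and USP2 (-0.17, adjusted p = 0.16) was not called. The call of USP16 was lost without the siControl or the siNONO library of Set 1 (edgeR adjusted p = 0.0553 and 0.0718) and that of USP21 without the siControl or the siNONO library of Set 2 (edgeR adjusted p = 0.14 and 0.113). Without the replicate block, edgeR's adjusted p was 0.069 for USP16 and 0.0508 for USP21. By limma on log2(TPM + 1), the calls of USP5 (0.01, adjusted p = 0.923), USP13 (-0.29, adjusted p = 0.0768) and USP16 (0.11, adjusted p = 0.241) were lost, and by DESeq2 that of USP21 (adjusted p = 0.14).

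The 4 other HERC genes carry the same kind of ligase domain as HERC5. HERC2, a giant ubiquitin ligase, had a log2 fold change of 0.11 (adjusted p = 0.00744 in edgeR), and its call was lost without either library of Set 1 (edgeR adjusted p = 0.0998 and 0.105) and without the replicate block (edgeR adjusted p = 0.084). On log2(TPM + 1) and log2(TPM + 0.1) its direction turned, to -0.03 in both. HERC3 (-0.38, adjusted p = 0.00206 in edgeR) and HERC4 (-0.22, adjusted p = 0.00112) were lower, and HERC1 (-0.02, adjusted p = 0.637) was not called. By limma on log2(TPM + 1), HERC1 was called lower (-0.28, adjusted p = 0.0335) and the call of HERC3 was lost (-0.38, adjusted p = 0.0553). None of the 4 was more than 0.14 higher on the log2 scale under any setting, against a rise of at least 1.93 for HERC5 and at least 1.44 for HERC6.

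**Figure D3:**
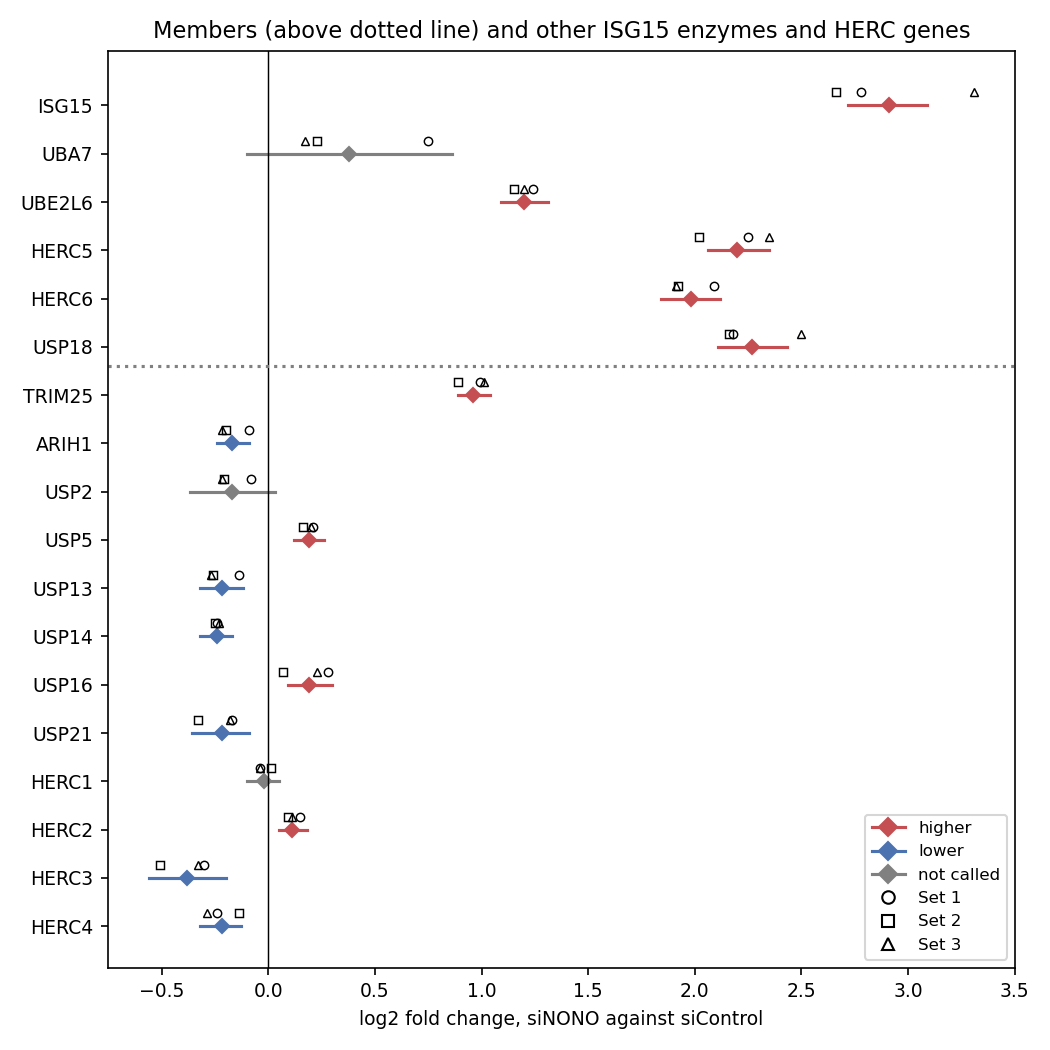
Log2 fold change of siNONO against siControl (horizontal axis) for the 6 members, above the dotted line, and 12 other ISG15 enzymes and HERC genes. Diamonds with lines are the edgeR estimate and its 95% interval, coloured by call, and open markers are the Sets. ISG15 is farthest right at 2.91, UBA7's interval (-0.10 to 0.86) includes 0, and of the genes below the line TRIM25 alone exceeds 0.19.

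The ISG15 system was set beside ubiquitin and the other ubiquitin-like modifiers with their E1 and main E2 enzymes, 30 genes in all. Of the 29 tested, 6 were called higher, 10 lower and 13 were not called, with a median log2 fold change of -0.01, and none reached 1 in either direction. The shares over all genes, 23.2% higher and 23.4% lower, stand beside these counts. The highest were ATG7, the E1 of the autophagy modifiers (0.37, adjusted p = 2.61e-04 in edgeR), and SUMO3 (0.36, adjusted p = 9.58e-05). By limma on log2(TPM + 1), the call of ATG7 was lost (0.15, adjusted p = 0.278), and its value was below that of SUMO3 (0.25). The lowest was SUMO2, which had 347, 347 and 320 CPM in siControl and 186, 189 and 163 CPM in siNONO, a log2 fold change of -0.92 (SE 0.032, edgeR quasi-likelihood adjusted p = 3.77e-10). SUMO2 and SUMO3 encode closely similar modifiers, and they moved in opposite directions. URM1, a modifier that also carries sulfur for tRNA, was at -0.60 (adjusted p = 1.25e-06 in edgeR).

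The counterparts of the members in the ubiquitin system moved little. UBA1, the main E1 of ubiquitin, was at -0.26 (adjusted p = 8.55e-06 in edgeR) and UBA6, the other one, at 0.05 (adjusted p = 0.276). UBE2L3, the E2 most like UBE2L6, was at -0.23 (SE 0.033, adjusted p = 1.12e-04 in edgeR) where UBE2L6 was at 1.20. UBD, which encodes FAT10, a modifier induced by interferon-gamma, had a count in 1 library only and was not tested.

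**Figure D4:**
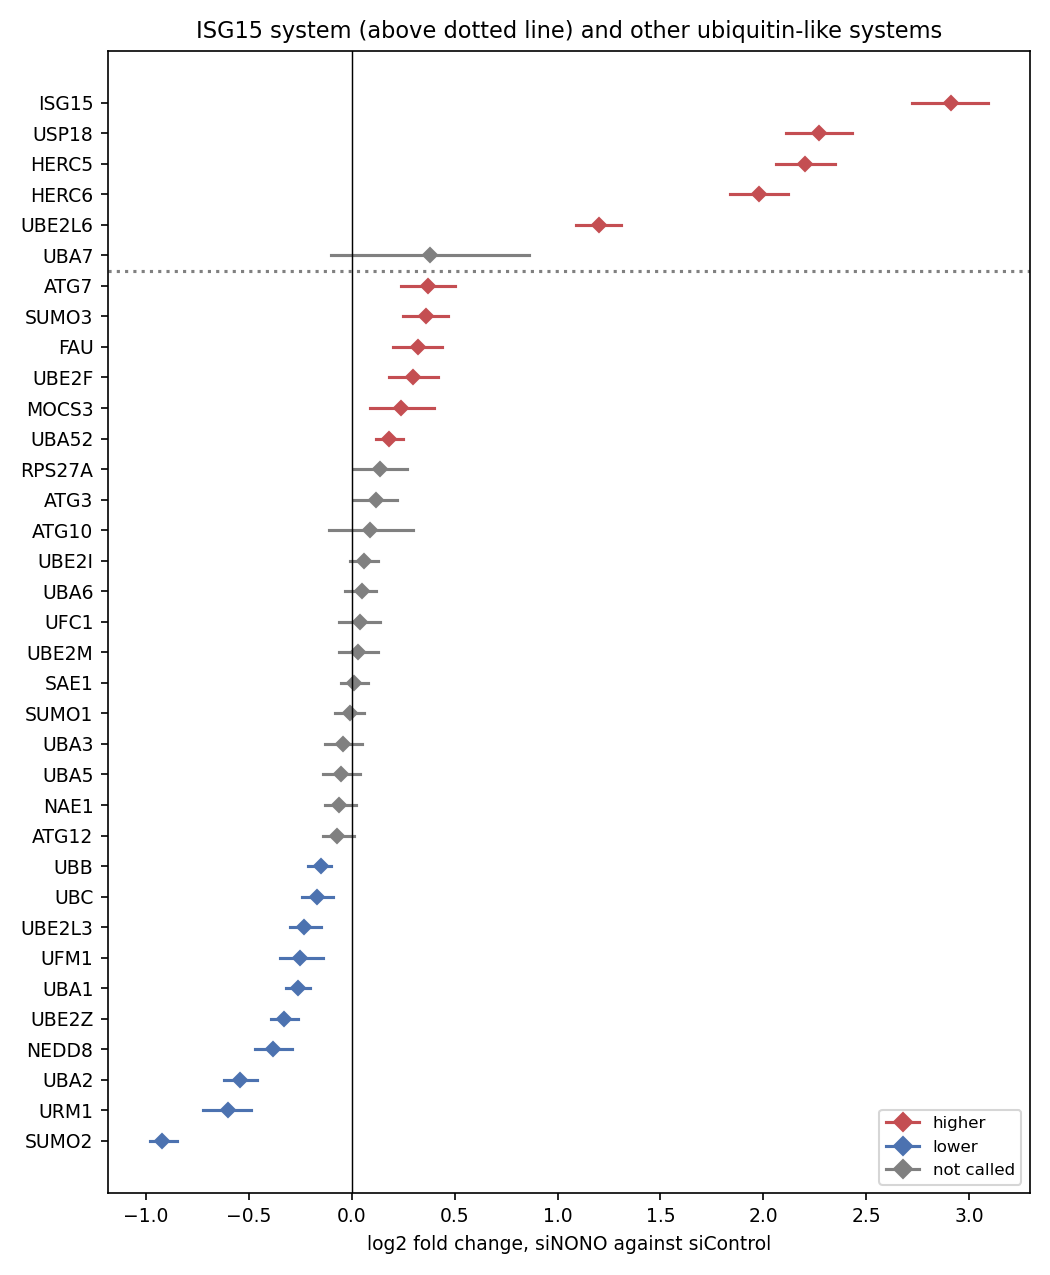
Log2 fold change of siNONO against siControl with its 95% interval (horizontal axis) for the 6 members, above the dotted line, and 29 genes of ubiquitin and the other ubiquitin-like systems, ordered by value and coloured by call. The genes below the line run from 0.37 (ATG7) to -0.92 (SUMO2), and 5 of the 6 members, all but UBA7 (0.38), lie at 1.20 or more.

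Proteins on which ISG15 has been found were taken as a further list of 18 genes, all tested, which shares TRIM25 with the list above. Of these 8 were called higher, 3 lower and 7 were not called, with a median log2 fold change of 0.08. The calls split the list, since 6 of the 8 higher genes had a log2 fold change of at least 1. Over all genes, 23.2% were called higher, 23.4% lower, and 1.62% higher with a log2 fold change of at least 1. IFIT1, an interferon-induced protein that binds foreign RNA ends, had 11.2, 11.2 and 12.4 CPM in siControl and 254, 212 and 267 CPM in siNONO, a log2 fold change of 4.39 (SE 0.050, edgeR quasi-likelihood adjusted p = 4.03e-14). RIGI, the cytosolic RNA sensor, was at 2.82 (adjusted p = 2.60e-11 in edgeR). PCNA, the sliding clamp of DNA replication, was among the 3 called lower (-0.32, adjusted p = 1.05e-04 in edgeR).

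The nearest tested protein-coding genes on each side of the members were examined next. Beside ISG15, HES4 was at 0.06 (adjusted p = 0.677 in edgeR) and AGRN, 5.58 kb away, at 0.25 (adjusted p = 1.75e-04). Beyond the HERC pair, PYURF (-0.03, adjusted p = 0.58 in edgeR) was not called and PPM1K, 94.1 kb away, was at 0.49 (adjusted p = 3.85e-04). By limma on log2(TPM + 1), the calls of AGRN (0.15, adjusted p = 0.0561) and PPM1K (0.29, adjusted p = 0.0999) were lost. HES4 turned to -0.11 and -0.12 without the siControl or the siNONO library of Set 3. The neighbours of USP18, TUBA8 (0.68, adjusted p = 0.102 in edgeR) and DGCR6 (0.20, adjusted p = 0.13), were not called.

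Beside UBE2L6, SMTNL1 rose (1.99, adjusted p = 0.00368 in edgeR) from very low levels, 0.0911 to 0.183 CPM in siControl and 0.429 to 0.594 CPM in siNONO, and it lies 1.39 kb from UBE2L6 on the other strand. On log2(TPM + 1) its change was 0.40 (limma adjusted p = 0.0209). SERPING1 on the far side was not called (0.22, adjusted p = 0.243 in edgeR). Beside UBA7, TRAIP fell by 0.51 (adjusted p = 4.67e-04 in edgeR). INKA1, whose end is 0.179 kb from that of UBA7 on the other strand, was called higher (1.02, adjusted p = 0.0265 in edgeR) at 0.425 to 0.767 CPM in siControl and 0.787 to 1.43 CPM in siNONO. The call of INKA1 was lost without the siControl or siNONO library of Set 1, at 0.62 and 0.61 (edgeR adjusted p = 0.276 and 0.297), and by limma on log2(TPM + 1), at 0.51 (adjusted p = 0.0611). The library kit keeps the strand, but whether the counting used it is not given in the sources used here. Other annotated genes that overlap the members had at most 1 count in any library.

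**Figure D5:**
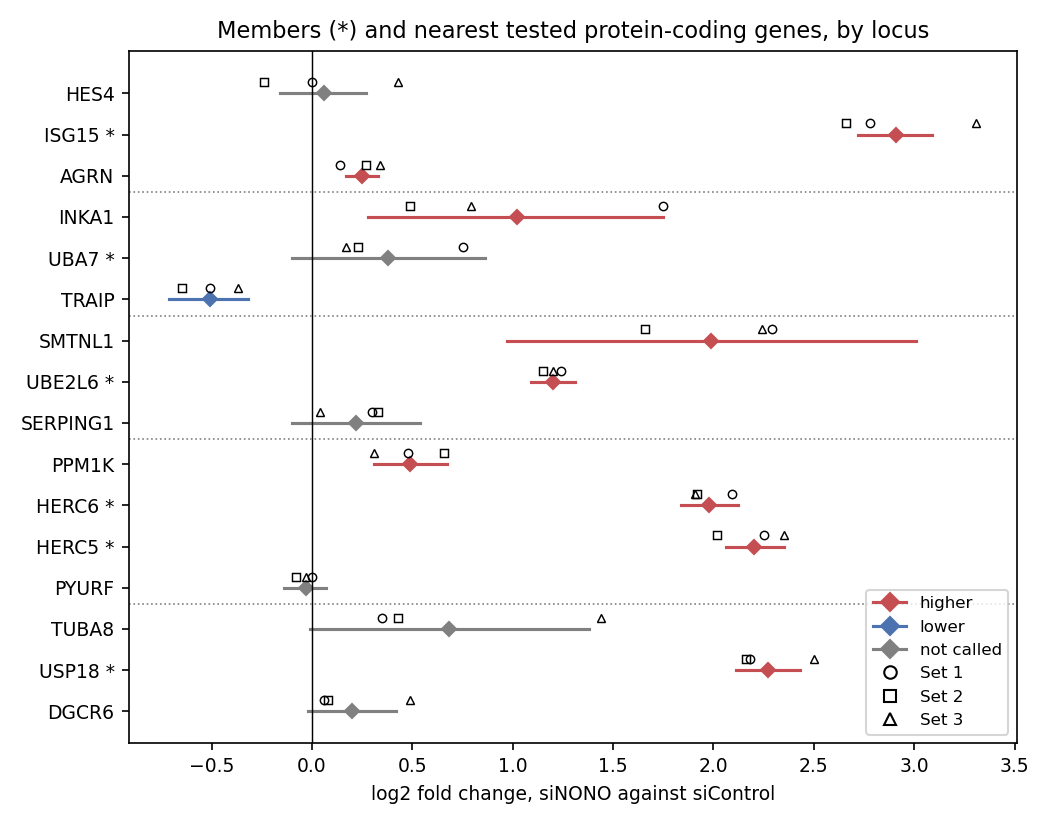
Log2 fold change of siNONO against siControl with its 95% interval (horizontal axis) for the members, marked with an asterisk, and the nearest tested protein-coding genes at each of 5 loci, separated by dotted lines; open markers are the Sets. HERC6 (1.98) and HERC5 (2.20) stand between PPM1K (0.49) and PYURF (-0.03), and the low-count SMTNL1 has the widest interval.

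Genes whose pattern over the 6 libraries was most like that of ISG15 were sought among 13340 genes whose average log2 CPM was 1 or more. The measure was the root mean square difference in log2 CPM, each gene relative to its siControl mean. IFIT2, an interferon-induced relative of IFIT1, was closest at 0.11, with 6.04, 5.55 and 4.92 CPM in siControl and 43.5, 38.4 and 53.2 CPM in siNONO. IFITM1, a membrane protein that restricts virus entry, followed at 0.14, with 2.15, 2.70 and 2.55 CPM in siControl and 19.6, 14.2 and 23.8 CPM in siNONO. In both, as in ISG15, the siNONO library of Set 3 was the highest and that of Set 2 the lowest. The genes were picked by likeness over these same 6 libraries. A shared order is thus favoured by the choice and is not a separate result. The next 3 genes were between 0.16 and 0.19, RIGI and PARP9 among them at 0.19.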

How the data were processed

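Reads were processed by the authors, who trimmed them with sickle (version 1.33), mapped them with STAR to transcripts of GENCODE version 34 (GRCh37) and quantified genes by RSEM (version 1.3.1). The deposited values are estimated counts, not normalized, TPM scaled by RSEM for length and library, and mean lengths per gene. The submitters' processing notes also list bcl2fastq. Estimated counts were rounded and tested with edgeR (version 4.0.16, legacy quasi-likelihood form, TMM, filterByExpr, Benjamini-Hochberg) in R 4.3.3, with the Set as a block. The Set numbers of the labels were taken to pair the libraries. Deviations from group means correlated at 0.227, 0.181 and 0.380 within Sets 1, 2 and 3, over 12114 genes. Between Sets 1 and 2 they correlated at 0.129 and 0.108, and between Set 3 and the others at -0.270 to -0.208. Sets 1 and 2 were thus told apart less clearly than Set 3. The deviations of a group cancel out for each gene, so a positive value within a Set comes with lower values between that Set and the others. The negative values are therefore no separate evidence of the pairing. Replicates differed by more than counting noise in every pair. Of the identifiers, 281 had no symbol. Named genes were the members, NONO, all other ISG15 enzymes and HERC genes listed, and neighbours. List extremes with UBE2L3, UBA1, UBA6 and UBD were named too, and the 5 genes most like ISG15, of which 1 is unnamed here. The values of 1 list extreme are not reported here. HERC3 was taken by its own identifier. PECAM1, the sixth marker of other cells, was not matched. The members and lists were chosen with earlier results of these data known. Positions, exons and neighbours came from GENCODE version 44 mapped to GRCh37. Alternatives were other scalings and filters, no block, DESeq2 (version 1.42.0), limma (version 3.58.1) on TPM and each library left out.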

Additional observations from a re-analysis of the deposited data

How the results depend on the processing

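All 6 members kept their direction and side of the threshold under all 16 other settings. The log2 fold change ranged from 2.72 to 3.04 for ISG15, 0.10 to 0.50 for UBA7 (adjusted p 0.14 to 0.738 by edgeR, DESeq2 and limma), 1.08 to 1.23 for UBE2L6, 1.93 to 2.31 for HERC5, 1.44 to 2.02 for HERC6 and 2.04 to 2.34 for USP18. Without the replicate block, ISG15 was at 2.94, and calls over all genes were 3096 higher and 3068 lower, beside 3939 and 3985 with it. DESeq2 called 2612 higher and 2615 lower. The block changed the count of other ISG15 enzymes and HERC genes called higher, which was 4 with it and 2 without it. That count was 1 by limma with either pseudocount (1 or 0.1) and 2 to 4 with a library left out. The other modifier systems called higher went from 6 to 2 and 3 by limma, which called 31.3% of its calls higher with a pseudocount of 1, beside 49.7% by edgeR. The median of the members went from 2.09 to 1.69 and 1.84 by limma. HERC2 turned to -0.03 and -0.03 by limma, UBA6 to -0.02 and -0.02, and HES4 to -0.05 and -0.05, and HES4 ran from -0.12 to 0.22 with a library left out, with -0.11 and -0.12 without either library of Set 3. The ratio of ISG15 to HERC6 was added after the data were seen. The cause of these changes was not tested. Low counts limit UBA7, INKA1 and SMTNL1.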
